A study of Mus musculus with 8 samples.

Results

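Airway secretory cells of the mouse lung were followed through 10 of their product genes in bulk RNA sequencing of bleomycin-injured lung. The 10 genes were taken by symbol from a count table of 18824 genes and all 10 were present. They were the secretoglobins Scgb1a1, Scgb3a1 and Scgb3a2, the club cell cytochrome P450 Cyp2f2, the BPI-fold proteins Bpifa1 and Bpifb1, the gel-forming mucins Muc5b and Muc5ac, the mucin-folding factor Agr2 and the membrane mucin Muc1. After a filter on low counts 9 of them were tested, among 14746 genes tested in all. Muc5ac was too low to pass.

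The libraries came from lungs of 4 wild-type samples (WT_BLM) and 4 Slc15a3-/- samples (KO_BLM). Mice of both groups were 8 weeks old when bleomycin (BLM), a DNA-breaking drug that leaves scarring in rodent lung, was given into the trachea at 2 mg/kg in 50 µl of saline on day 0, and lungs were collected on day 21. Both groups therefore carried the injury. Animals given saline alone are mentioned in the labels but were not analysed here, so every difference below is between 2 injured groups. Slc15a3 encodes a peptide and histidine transporter of endolysosomal membranes. The labels do not say how the allele was made, nor that each library is a separate animal, so p-values measure the spread between these libraries. Total counts were 18878835 to 20180831 per library in WT_BLM and 17627999 to 18471445 in KO_BLM. Slc15a3 itself stood at 45.8 to 55.7 CPM (counts per library scaled to the same total) in WT_BLM and 0.279 to 0.938 CPM in KO_BLM, a log2 fold change of −6.36 (edgeR adjusted p = 9.36e-07).

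Club cells are the dome-shaped secretory cells of the small airways. They release secretoglobins, small proteins of the airway lining fluid, and hold enzymes that oxidise inhaled chemicals, and they can renew themselves and give rise to ciliated cells. Goblet cells release the polymeric mucins that form the mucus gel, which cilia carry out of the lung, and the endoplasmic reticulum protein AGR2 is needed to fold those mucins. BPIFA1 and BPIFB1 are secreted, lipid-binding defence proteins made mainly in the upper and large airways and in submucosal glands.

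Of the 10 genes, 5 were higher in KO_BLM (Scgb1a1, Scgb3a2, Cyp2f2, Muc5b and Muc1) and 0 were lower, at an adjusted p under 0.05 in edgeR's quasi-likelihood test with Benjamini-Hochberg adjustment over all genes tested. Among the genes tested there were likewise 5 at an unadjusted p under 0.05, of which 0 were lower, and another tool, limma-voom, called 1 gene lower (Agr2). The 2 groups differed widely across the transcriptome, so these counts are read against that background: 41.5% of all tested genes were called, 20.7% higher and 20.8% lower. For 4 members every KO_BLM library lay above every WT_BLM library, which held for 20.3% of all tested genes. The median log2 fold change of the 9 tested members was 1.35, and that of all tested genes was 0.0025. In whole lung, more or fewer cells of a type cannot be told apart from more or less RNA per cell.

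**Figure D1:**
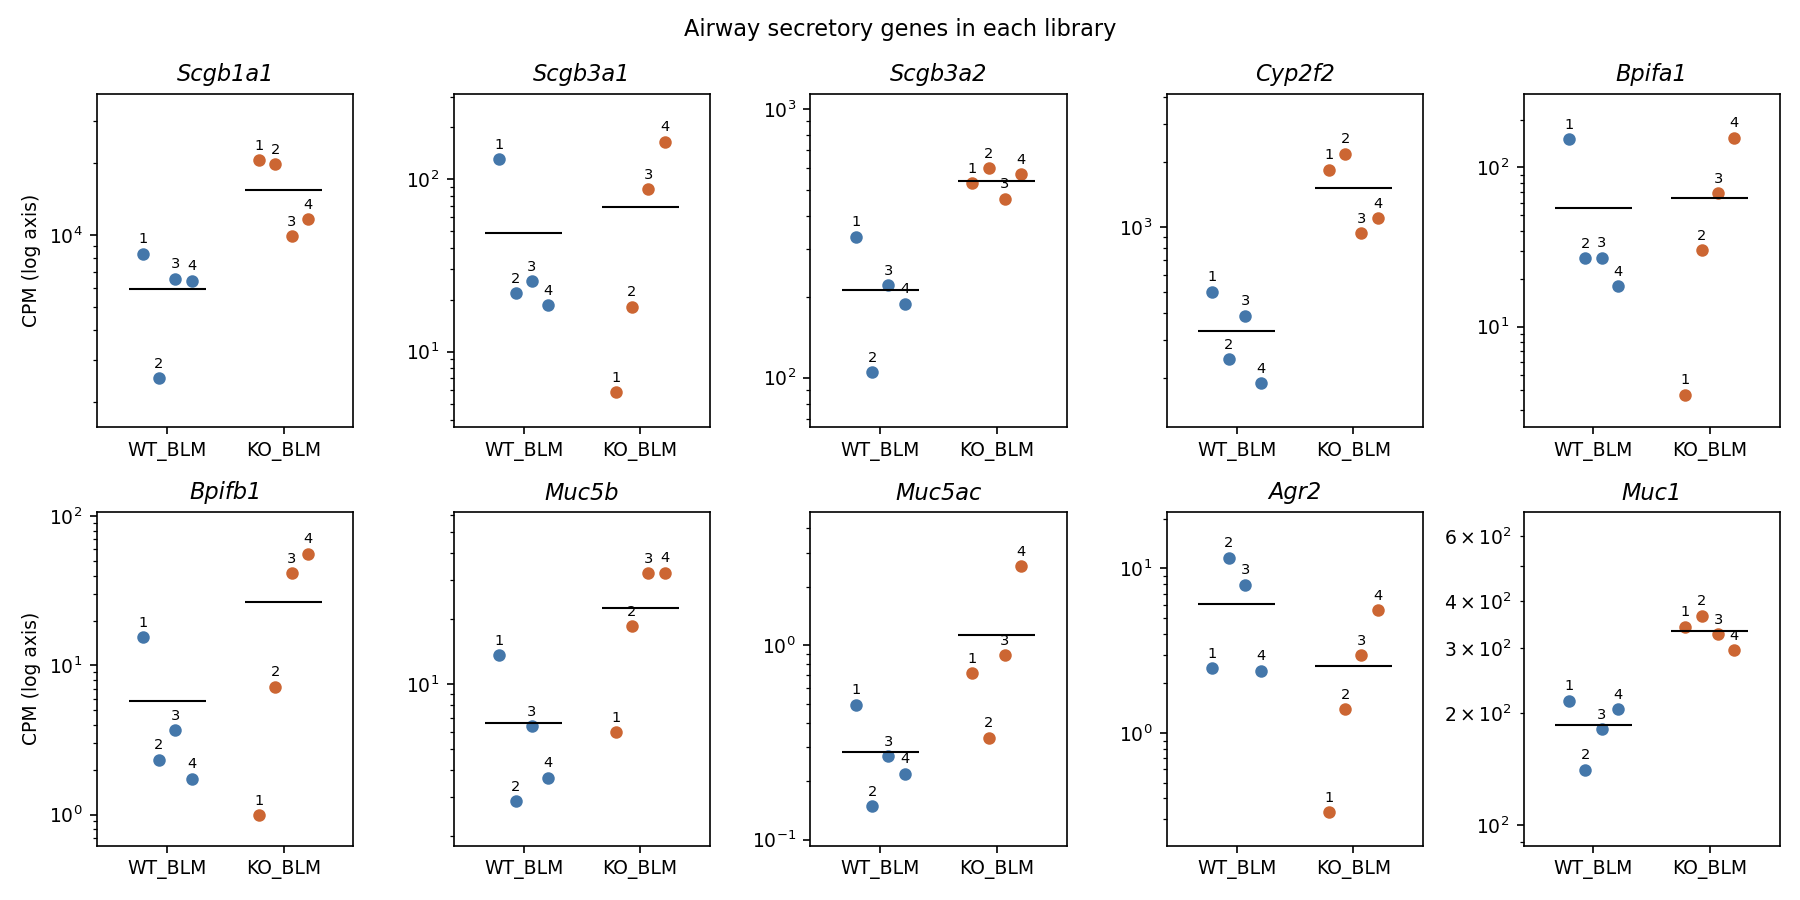
CPM (log axis) of the 10 genes in each library, numbered by replicate, with the arithmetic mean of each group as a line. The KO_BLM points of Scgb1a1, Scgb3a2, Cyp2f2 and Muc1 sit above all WT_BLM points, whereas those of Scgb3a1, Bpifa1 and Bpifb1 spread over a wide range in both groups.

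Some libraries stood apart within their group before any comparison was made. WT_BLM replicate 1 was the highest wild-type library for 9 of the 10 genes, the exception being Agr2. KO_BLM replicate 4 was the highest knockout library for 6 genes, and KO_BLM replicate 1 was the lowest for 5. For several of the genes below, fits that leave such a library out are given as well.

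Levels between genes can be compared only per unit of transcript length, as FPKM, which divides counts by gene length and library total. Scgb1a1 was by far the most abundant, at 12303 ± 4945 FPKM (SD, n = 4) in WT_BLM and 33790 ± 11216 FPKM in KO_BLM. In WT_BLM mean FPKM then ran down through Scgb3a2 at 367, Cyp2f2 at 177, Muc1 at 80.1, Scgb3a1 at 77.02, Bpifa1 at 48.4, Agr2 at 7.93, Bpifb1 at 3.27, Muc5b at 0.428 and Muc5ac at 0.0254. Among neighbours in this order, the libraries of Scgb1a1 and Scgb3a2, of Cyp2f2 and Muc1, of Bpifb1 and Muc5b, and of Muc5b and Muc5ac did not overlap, and all other neighbours did. In KO_BLM mean FPKM was 997 for Scgb3a2, 852 for Cyp2f2, 153 for Muc1, 118 for Scgb3a1, 61.0 for Bpifa1, 16.2 for Bpifb1, 3.54 for Agr2, 1.55 for Muc5b and 0.109 for Muc5ac. Bpifb1 stood above Agr2 there, though their libraries overlapped, and only Scgb1a1 over Scgb3a2, Cyp2f2 over Muc1 and Muc5b over Muc5ac were clear of each other. The mucin transcripts are long, 14976 bp for Muc5b in the deposited lengths against 468 bp for Scgb1a1, so their counts overstate their place beside the secretoglobins.

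Scgb1a1 encodes the main club cell secretory protein (CCSP, uteroglobin) and lies at chr19:9083642-9087956 in GRCm38. It stood at 8335, 2521, 6578 and 6441 CPM in WT_BLM replicates 1 to 4 and at 20502, 19730, 9898 and 11636 CPM in KO_BLM replicates 1 to 4. The groups did not overlap, although WT_BLM replicate 2 was low and KO_BLM replicates 1 and 2 were about level with each other and above replicates 3 and 4. The mean rose from 5969 ± 2455 to 15442 ± 5453 CPM (SD, n = 4 each), 2.59-fold, with a log2 fold change of 1.37, a standard error of 0.36, a 95% interval of 0.58 to 2.17 and an edgeR adjusted p of 0.0129. As a share of all counts, this single gene took 0.252% (95% Wilson interval 0.250 to 0.254) in the lowest wild-type library and 2.05% (2.05 to 2.06) in the highest knockout library, intervals that cover counting error only.

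Scgb3a2, a secretoglobin of club cells and of early airway epithelium at chr18:43764301-43767399, kept more even levels in the knockout. Its WT_BLM values were 334, 105, 221 and 189 CPM and its KO_BLM values 528, 599.9, 463 and 569.8 CPM. The lowest knockout library was above the highest wild-type library, and the knockout libraries spanned 1.30-fold from lowest to highest against 3.19-fold in WT_BLM. The fitted difference was 2.55-fold (log2 fold change 1.35, SE 0.28, 95% interval 0.72 to 1.97, edgeR adjusted p = 0.00463).

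Cyp2f2, the club cell P450 that activates naphthalene and related aromatic compounds (chr7:27119955-27133660), showed the largest fold among the called members. Its levels were 501, 244, 389 and 189 CPM in WT_BLM and 1842, 2186, 936 and 1097 CPM in KO_BLM. All knockout libraries exceeded all wild-type libraries, and replicates 1 and 2 of KO_BLM were again the higher pair. The mean went from 331 ± 142 to 1515 ± 596 CPM, a 4.58-fold rise (log2 fold change 2.19, SE 0.35, 95% interval 1.41 to 2.98, edgeR adjusted p = 0.00132).

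Muc1, a cell-surface mucin of many lung epithelial cells including club and alveolar type 2 cells (chr3:89229056-89233381), had the least spread of the 10. It measured 216, 141, 181 and 205 CPM in WT_BLM and 342, 367, 327 and 295 CPM in KO_BLM. The groups were separate, and the highest library was only 1.54-fold above the lowest in WT_BLM and 1.24-fold in KO_BLM. The rise was smaller than for the club cell products, 1.79-fold (log2 fold change 0.84, SE 0.13, 95% interval 0.54 to 1.14, edgeR adjusted p = 0.00125).

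**Figure D2:**
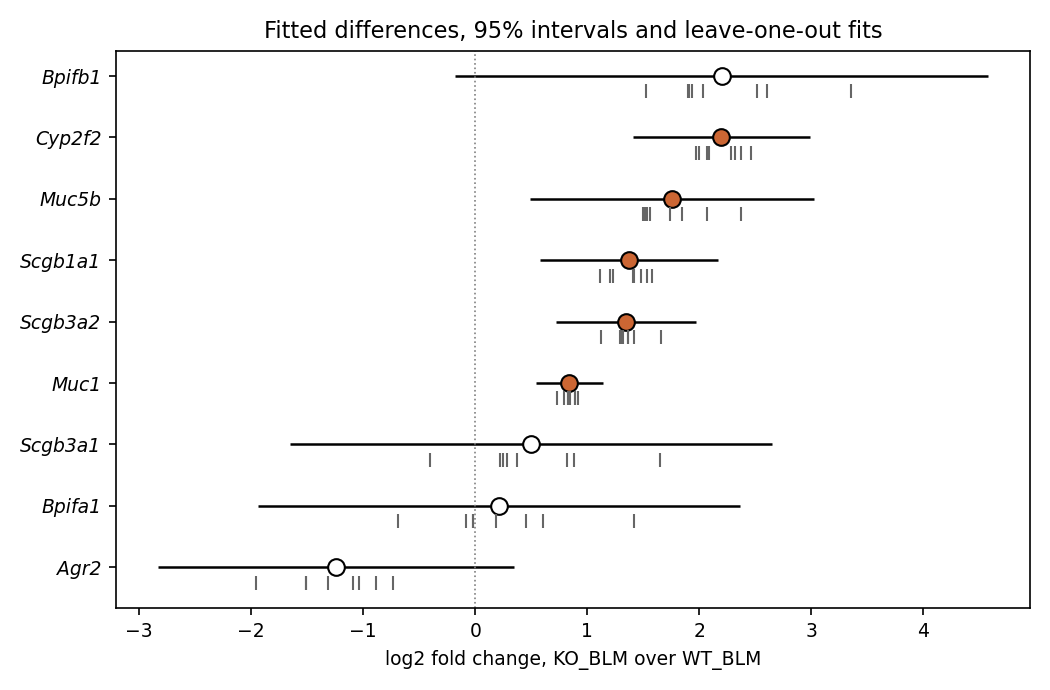
Log2 fold change of KO_BLM over WT_BLM for the 9 tested genes with its 95% interval as a line, filled points being past the adjusted p threshold and ticks below each line being fits with 1 library left out. Cyp2f2, Scgb1a1, Scgb3a2 and Muc1 have short intervals clear of 0, while those of Scgb3a1, Bpifa1, Bpifb1 and Agr2 cross it.

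These 4 calls held in all 20 alternative fits. Fold changes over those fits ran from 2.17 to 3.09 for Scgb1a1, 2.18 to 3.15 for Scgb3a2, 3.91 to 5.52 for Cyp2f2 and 1.65 to 1.92 for Muc1, with highest adjusted p values of 0.0380, 0.0149, 0.00426 and 0.00558 in the same order.

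The remaining secretoglobin, Scgb3a1, is a product of the larger airways (chr11:49663595-49665118) and had a different profile. It stood at 129.8, 21.9, 25.7 and 18.5 CPM in WT_BLM and at 5.84, 18.2, 87.1 and 165 CPM in KO_BLM. The high libraries were WT_BLM replicate 1 and KO_BLM replicates 3 and 4, and the wild-type range lay within the knockout range. From lowest to highest, the knockout libraries spanned 28.2-fold. The fitted log2 fold change of 0.50 (95% interval −1.66 to 2.65, edgeR adjusted p = 0.702) did not pass, and it was −0.40 without KO_BLM replicate 4 and 1.65 without WT_BLM replicate 1.

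Bpifa1 (SPLUNC1, chr2:154142880-154149217) repeated that profile library by library. Its values were 149.8, 26.9, 27.1 and 17.9 CPM in WT_BLM and 3.75, 30.4, 68.7 and 153 CPM in KO_BLM. The same 3 libraries were high, and the knockout libraries spanned 40.9-fold, from 68 counts in replicate 1 to 2940 in replicate 4. The log2 fold change was 0.21 (95% interval −1.94 to 2.36, edgeR adjusted p = 0.877), and without KO_BLM replicate 4 it was −0.69.

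Bpifb1 (LPLUNC1, chr2:154190818-154220343) lies on the same stretch of chromosome 2, 41601 bp beyond Bpifa1 with Bpifa5 in between. It measured 15.4, 2.33, 3.70 and 1.74 CPM in WT_BLM and 0.992, 7.20, 41.5 and 56.2 CPM in KO_BLM, a 56.7-fold span in the knockout. KO_BLM replicate 1 was below every wild-type library and replicates 3 and 4 were above every one. Its log2 fold change of 2.20 (SE 1.06, 95% interval −0.18 to 4.58, edgeR adjusted p = 0.122) did not pass over all 8 libraries. It passed without WT_BLM replicate 1 (3.35, adjusted p = 0.0450) and without KO_BLM replicate 1 (2.60, adjusted p = 0.0319), so single libraries decided that call. Without KO_BLM replicate 4 the log2 fold change was 1.52 (edgeR adjusted p = 0.273).

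**Figure D3:**
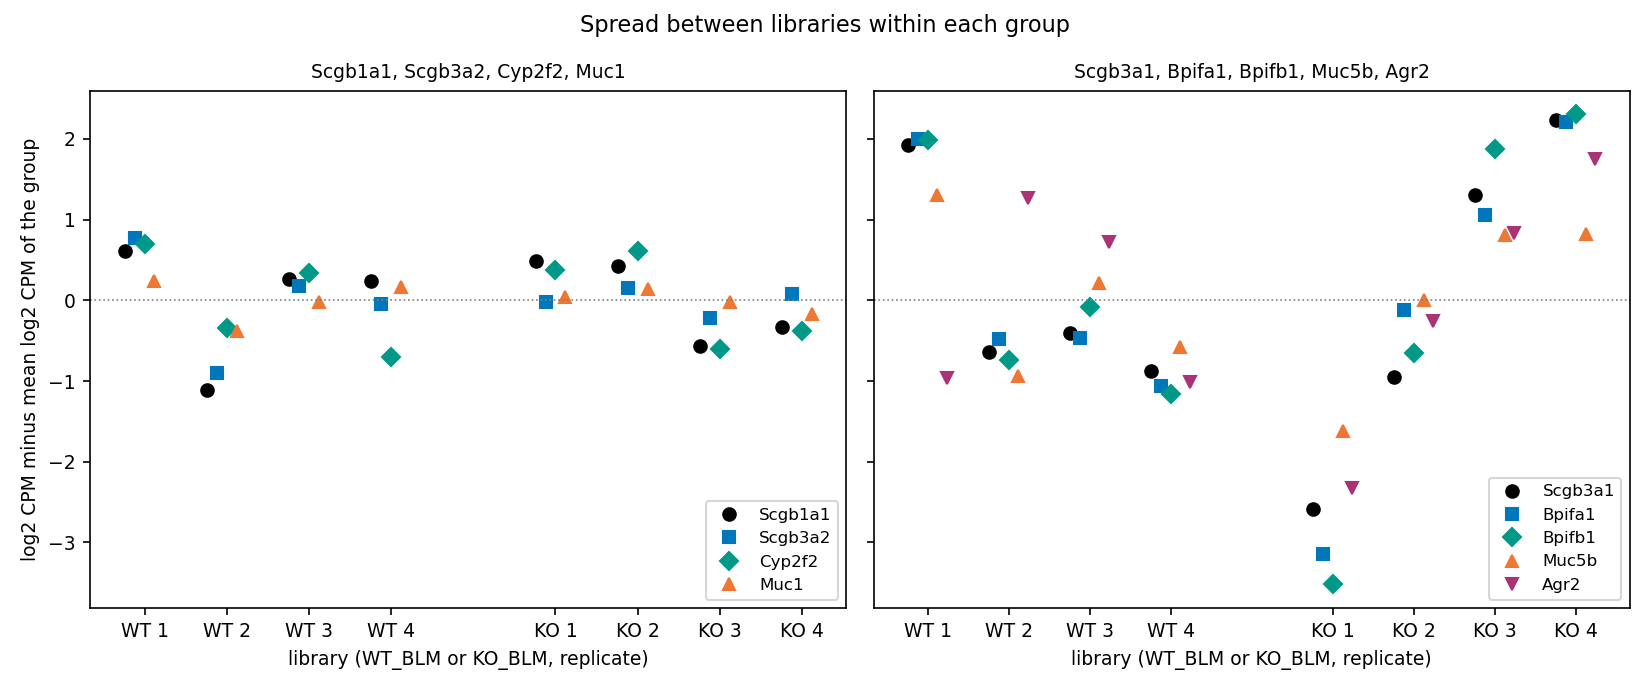
Log2 CPM minus the mean log2 CPM of the group, by library, for Scgb1a1, Scgb3a2, Cyp2f2 and Muc1 (left) and for Scgb3a1, Bpifa1, Bpifb1, Muc5b and Agr2 (right). On the right, Scgb3a1, Bpifa1 and Bpifb1 are high in WT_BLM replicate 1 and KO_BLM replicates 3 and 4 and low in KO_BLM replicate 1, a spread far wider than that on the left.

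After each group's mean was taken off, these 3 genes varied together over the 8 libraries: Pearson's r of log2 CPM was 0.97 for Scgb3a1 with Bpifa1, 0.98 for Scgb3a1 with Bpifb1 and 0.98 for Bpifa1 with Bpifb1. Muc5b varied with them (r = 0.92 with Scgb3a1, 0.93 with Bpifa1 and 0.95 with Bpifb1). Coefficients with Bpifa1 were lower for the other called genes, at −0.20 for Scgb1a1, −0.080 for Cyp2f2, −0.026 for Muc1 and 0.35 for Scgb3a2, and Scgb3a2 gave 0.57 with Muc5b. Among themselves, Scgb1a1 gave 0.84 with Scgb3a2, 0.68 with Cyp2f2 and 0.89 with Muc1. These coefficients are descriptions only, as all genes of a library share its depth and scaling.

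Among 14390 genes ranked by the same measure, those most like Bpifa1 were Reg3g (r = 0.99), an antimicrobial lectin, Wfdc12 (0.97), a small protease inhibitor, Adam8 and Kcnmb2 (both 0.96) and Ltf (0.96), the iron-binding lactoferrin of gland serous cells and neutrophils. Ltf stood at 84.1, 12.4, 20.04 and 16.3 CPM in WT_BLM and 7.66, 18.7, 45.4 and 75.6 CPM in KO_BLM. WT_BLM replicate 1 was again the highest wild-type library, and the knockout libraries kept the order they had for Bpifa1 (log2 fold change 0.15, edgeR adjusted p = 0.888). Reg3g spanned 1.03 to 11.1 CPM among wild-type and 0.496 to 45.3 CPM among knockout libraries, highest in the same replicates 1 and 4 (log2 fold change 1.88, edgeR adjusted p = 0.174). Wfdc12 fell by 1.96 on the log2 scale (edgeR adjusted p = 0.0115), from 1.91 to 5.11 CPM among wild-type to 0.165 to 1.41 CPM among knockout libraries, with no overlap. Adam8, a membrane protease (−0.83, edgeR adjusted p = 0.0634), and Kcnmb2, a potassium channel subunit (0.65, adjusted p = 0.107), did not pass.

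Markers of structures near the airway epithelium are given beside these libraries. Summed CPM of the submucosal gland markers was 91.5, 18.0, 28.7 and 24.0 in WT_BLM and 17.2, 26.5, 52.7 and 90.0 in KO_BLM, a profile carried by Ltf. Without Ltf the other gland markers summed to 5.60 to 8.68 CPM in WT_BLM, with 7.37 in replicate 1, and to 9.53, 7.81, 7.25 and 14.3 CPM in KO_BLM, where replicate 4 was again the highest but replicate 3 the lowest. Of the 5 gland markers tested, 1 was higher in KO_BLM (Bhlha15, a factor of secretory cells, 1.93-fold, edgeR adjusted p = 0.0448, a call lost in 7 of 19 alternatives) and 0 were lower. Over all tested genes 20.7% were higher and 20.8% lower. Summed CPM of the basal cell markers was 36.8 in WT_BLM replicate 1 against 2.61 to 6.84 in the other 3 wild-type libraries and 4.08 to 8.97 in KO_BLM. Krt5, the keratin of airway basal cells, had 288 counts in WT_BLM replicate 1, 1 to 8 in the other 3 and 0 to 24 in KO_BLM, and its partner Krt14 stood at 14.9 CPM there against 0.327 to 1.54 in the other 3. Cartilage markers summed to 6.55 to 10.2 CPM in WT_BLM and 16.1 to 19.6 in KO_BLM, a difference carried by Cytl1, a cytokine-like secreted protein (5.41-fold higher, edgeR adjusted p = 9.77e-05). Without Cytl1 the sums were 5.01 to 6.38 CPM in WT_BLM and 2.42, 2.51, 4.38 and 4.33 CPM in KO_BLM, with WT_BLM replicate 1 the highest wild-type library. The part of basal, gland or cartilage RNA in the profile of Scgb3a1, Bpifa1 and Bpifb1 was not tested.

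Promoters of genes that vary together can be set beside each other. RefSeq windows on GRCm38.p6, running from 250 bases before to 50 bases after an annotated start, were matched for 6 of the 10 genes. Those of Scgb3a1 (chr11:49663345-49663644), Bpifa1 (chr2:154142630-154142929) and both annotated starts of Bpifb1 (chr2:154190568-154190867 and chr2:154200130-154200429) are shown because their genes share the profile above, and that of Cyp2f2 (chr7:27119705-27120004) as a club cell gene without it, all on the plus strand and 5′ to 3′. Capitals mark matches, on either strand, to TNTTTAC (a forkhead, FOX, core) or CTCAAG (an NKX2-1 core), and TTGCNNAA (a C/EBP core) was searched as well.
Scgb3a1: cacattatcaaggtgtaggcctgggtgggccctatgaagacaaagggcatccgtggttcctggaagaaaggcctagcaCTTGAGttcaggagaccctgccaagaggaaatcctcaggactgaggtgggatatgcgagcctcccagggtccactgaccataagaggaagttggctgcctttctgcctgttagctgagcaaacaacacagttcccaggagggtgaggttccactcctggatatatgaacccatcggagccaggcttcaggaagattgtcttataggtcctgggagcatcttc
Bpifa1: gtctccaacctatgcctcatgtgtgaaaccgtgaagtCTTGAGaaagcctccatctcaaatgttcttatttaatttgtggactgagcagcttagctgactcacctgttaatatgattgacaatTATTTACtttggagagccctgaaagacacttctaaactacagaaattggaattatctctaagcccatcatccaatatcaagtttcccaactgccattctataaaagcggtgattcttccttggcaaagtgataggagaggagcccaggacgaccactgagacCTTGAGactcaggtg
Bpifb1, first start: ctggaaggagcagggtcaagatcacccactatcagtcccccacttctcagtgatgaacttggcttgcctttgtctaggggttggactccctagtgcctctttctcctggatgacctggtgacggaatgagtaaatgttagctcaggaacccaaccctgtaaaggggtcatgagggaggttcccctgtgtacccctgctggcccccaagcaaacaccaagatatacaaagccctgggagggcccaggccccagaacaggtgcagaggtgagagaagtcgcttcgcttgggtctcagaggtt
Bpifb1, second start: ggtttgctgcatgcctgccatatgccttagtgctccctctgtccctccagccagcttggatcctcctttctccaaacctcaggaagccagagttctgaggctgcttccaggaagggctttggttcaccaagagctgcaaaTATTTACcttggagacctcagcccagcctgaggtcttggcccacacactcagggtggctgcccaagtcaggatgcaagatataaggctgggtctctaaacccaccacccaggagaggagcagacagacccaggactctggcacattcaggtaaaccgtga
Cyp2f2: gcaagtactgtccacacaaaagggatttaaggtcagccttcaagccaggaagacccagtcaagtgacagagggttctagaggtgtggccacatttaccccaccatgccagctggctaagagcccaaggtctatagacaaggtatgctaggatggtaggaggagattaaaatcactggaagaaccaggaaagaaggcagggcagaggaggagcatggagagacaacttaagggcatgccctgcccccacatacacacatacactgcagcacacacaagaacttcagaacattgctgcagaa

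Bpifa1 held a FOX match 127 bases before its start and NKX2-1 matches on the minus strand, 213 bases before and 36 bases after it. The second Bpifb1 window held a FOX match 110 bases before its start, spelled with the same 7 letters as in Bpifa1, whereas the first held none. Scgb3a1 held an NKX2-1 match 172 bases before its start, and the Cyp2f2 window held none of the 3. Over 32817 promoter windows of this length, 12.4% held a FOX match, 15.9% an NKX2-1 match and 10.8% a C/EBP match, so single matches of this kind are common. The other windows matched were those of Muc1, with an NKX2-1 match 21 bases after the start, and Agr2, with none. Scgb1a1, Muc5b and Muc5ac were without an entry. Windows on chromosome 18, where Scgb3a2 lies, were left out of the matching, so none was used for Scgb3a2.

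Muc5b, the gel-forming mucin that mouse airways need for clearance (chr7:141839059-141873089), was low but measurable in all libraries. Its WT_BLM values were 13.6, 2.88, 6.38 and 3.70 CPM and its KO_BLM values 6.005, 18.5, 32.3 and 32.6 CPM. KO_BLM replicate 1 lay within the wild-type range and the other 3 above it. The rise was 3.38-fold (log2 fold change 1.76, SE 0.57, 95% interval 0.49 to 3.03, edgeR adjusted p = 0.0322). It is the least secure of the 5 calls and was lost in 11 of 20 alternatives. Over all 20, adjusted p ran from 0.00906 to 0.0805. The fits that lost it included those without WT_BLM replicates 2, 3 or 4 and without KO_BLM replicates 2, 3 or 4 (0.0521 to 0.0805).

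Muc5ac, the other gel-forming airway mucin and the one raised in goblet cell metaplasia, lies next to Muc5b (chr7:141788958-141819227), with 19832 bp between the genes. It gave 9, 3, 5 and 4 counts in WT_BLM and 13, 6, 17 and 49 counts in KO_BLM. KO_BLM replicate 4 held most of the knockout reads, and replicate 2 overlapped with WT_BLM. Having failed the filter it has no main test, and its mean CPM was 3.98-fold higher in KO_BLM. With no filter edgeR gave 3.95-fold (adjusted p = 0.0321) and DESeq2 gave 3.99-fold (adjusted p = 0.0144), whereas limma on log2(FPKM + 1) gave an adjusted p of 0.162. All of these values include KO_BLM replicate 4, as Muc5ac was not tested in the fit without that library. Beside this pair, Muc2, the intestinal gel mucin, fell 2.90-fold (edgeR adjusted p = 0.0109) and Tollip, on the far side of Muc5b, had a log2 fold change of −0.27 (adjusted p = 0.0453, lost in 13 of 20 alternatives).

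Of the 22 listed genes of mucus assembly and release, several goblet cell products were too low to test, and those given here were chosen after their counts were seen. Clca1, a secreted mucus-processing protease, had 40, 4, 2 and 0 counts in WT_BLM and 0, 9, 15 and 391 in KO_BLM. Tff2, a trefoil peptide of mucus, had 1 to 11 counts per library in WT_BLM and 5, 9, 72 and 102 in KO_BLM. Itln1, a lectin of goblet cells, had 0 to 2 counts in WT_BLM and 67 in KO_BLM replicate 4 against 0 to 3 in the other 3. KO_BLM replicate 4 was the highest library for each of these 3 genes, as it was for Muc5ac, Scgb3a1, Bpifa1 and Bpifb1. Others ran the opposite way: the trefoil gene Tff1 had 35 counts in all in WT_BLM and 4 in KO_BLM, and the mucin glycosyltransferase gene Gcnt3 had 10 and 0. Transcripts of the type 2 cytokines Il13 and Il4, which induce goblet cells, were at most 2 counts in any library.

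Agr2 (chr12:35992925-36004081) was the only tested member with a lower mean in KO_BLM, though it did not pass. It stood at 2.47, 11.6, 7.98 and 2.40 CPM in WT_BLM and 0.331, 1.39, 2.97 and 5.58 CPM in KO_BLM. WT_BLM replicates 2 and 3 were the highest and KO_BLM replicates 1 and 2 the lowest, with the others overlapping. The log2 fold change was −1.25 (SE 0.71, 95% interval −2.84 to 0.34, edgeR adjusted p = 0.184). Only limma-voom called it lower (−2.04, adjusted p = 0.0323), of 20 alternatives. Over the 8 libraries, with group means taken off, r was −0.75 with Scgb1a1, 0.41 with Muc5b, 0.55 with Scgb3a1, 0.58 with Bpifa1 and 0.61 with Bpifb1.

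Ratios between 2 genes within a library do not depend on scaling between libraries. Of 6 ratios compared by two-sided exact permutation over the 70 arrangements of 4 against 4, where the smallest possible p is 0.0286, 0 passed after adjustment over the 6. A ratio alone at that smallest p adjusts to 0.171, so no single ratio could have passed on its own. Only Bpifb1 to Bpifa1 reached that smallest p. Their ratio was 0.103, 0.0867, 0.137 and 0.0973 in WT_BLM and 0.265, 0.237, 0.604 and 0.367 in KO_BLM, so all knockout libraries were above all wild-type libraries. The difference was 3.29-fold (exact permutation p = 0.0286, adjusted 0.171), in genes whose own levels overlapped.

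Cyp2f2 to Scgb1a1 was 0.0601, 0.0966, 0.0592 and 0.0294 in WT_BLM and 0.0898, 0.111, 0.0945 and 0.0943 in KO_BLM. The knockout libraries lay close together, and WT_BLM replicate 2, the lowest for Scgb1a1, fell among them. The difference of 1.72-fold had an exact permutation p of 0.114 (adjusted 0.343), so a larger rise of Cyp2f2 than of Scgb1a1 was not established. Scgb3a2 to Scgb1a1 differed by 0.03 on the log2 scale (exact permutation p = 0.886, adjusted 1.0).

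Scgb3a1 to Scgb3a2 spanned 0.0981 to 0.388 among wild-type libraries and 0.0111 to 0.289 among knockout libraries (difference −1.41 on the log2 scale, exact permutation p = 0.314, adjusted 0.557). Within the knockout, replicates 1 and 2 were at the low end and replicates 3 and 4 at the high end. Muc5b to Muc5ac lay between 17.0 and 27.4 in wild-type and between 8.38 and 55.2 in knockout libraries, with a difference of 0.00083 on the log2 scale (exact permutation p = 1.0). Scgb1a1 to Foxj1, the club cell product beside the master factor of ciliated cells, was 216, 41.0, 109 and 184 in WT_BLM and 371, 236, 145 and 100.2 in KO_BLM (exact permutation p = 0.371, adjusted 0.557). The spread of this ratio within each group was wider than the difference between the groups.

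**Figure D4:**
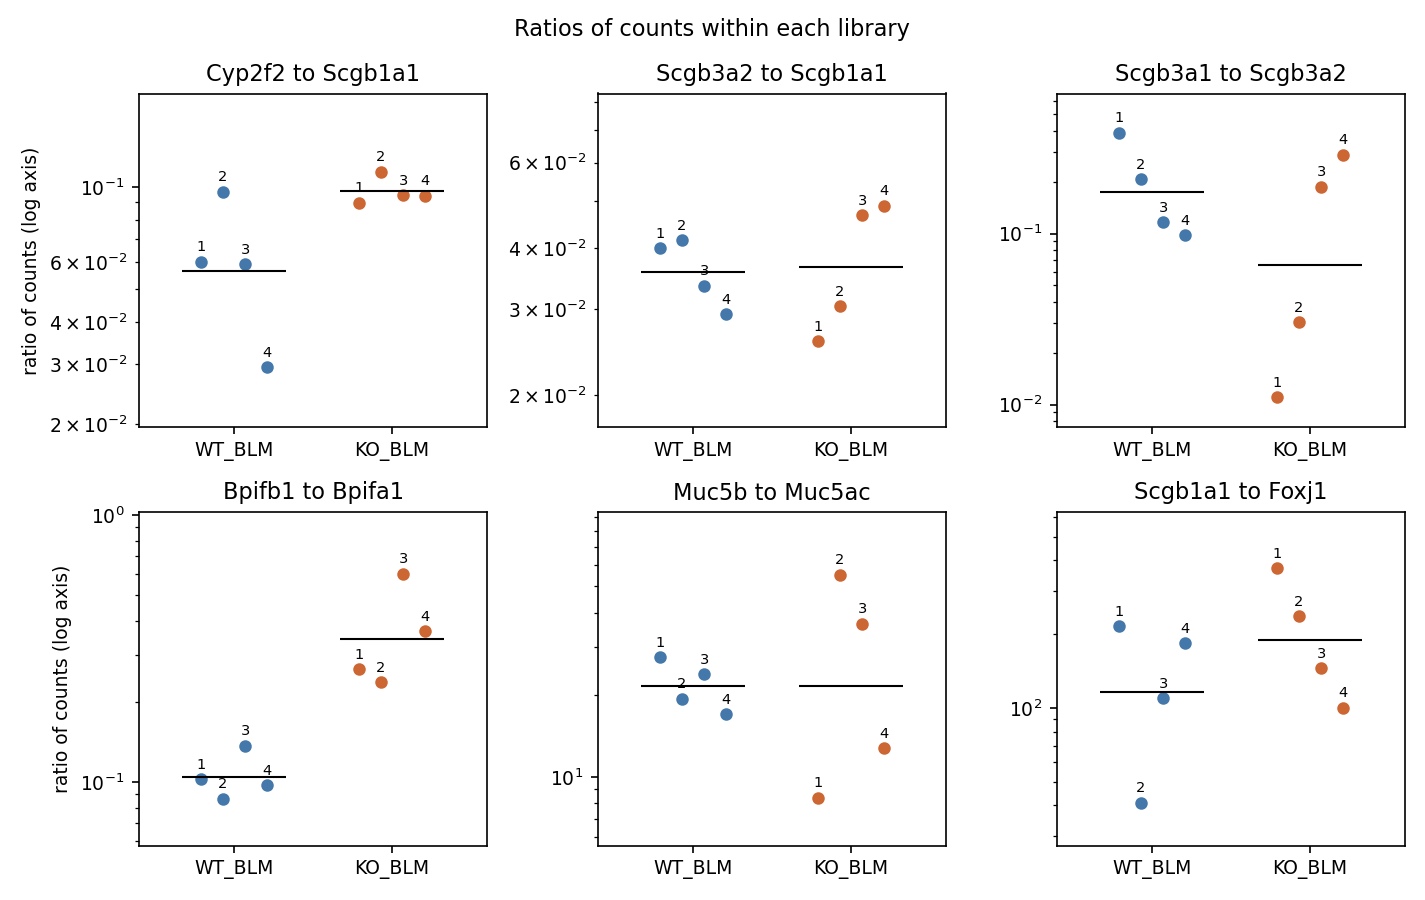
The 6 ratios of counts (log axis) in each library, numbered by replicate, with the geometric mean of each group as a line. Only Bpifb1 to Bpifa1 has all KO_BLM points above all WT_BLM points.

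Beyond the 10, other genes of club cells were raised in KO_BLM as well. Of 24 listed and tested, 19 were higher and 0 lower, beside 20.7% and 20.8% of all tested genes, with a median log2 fold change of 1.14. Their summed CPM was 4125 to 6499 in WT_BLM and 8140 to 11026 in KO_BLM. Cbr2, a club cell carbonyl reductase, went from 546 ± 169.6 to 2189.8 ± 782 CPM, 4.01-fold (edgeR adjusted p = 0.000975), and Aldh1a1, a retinal-oxidising dehydrogenase, rose 2.05-fold. Chad rose 9.62-fold from a low level, 1.09 to 10.5 CPM (adjusted p = 0.000285), Aldh1a7 2.96-fold and the carboxylesterase Ces1d 2.23-fold. Hp, the haemoglobin-binding haptoglobin, had a log2 fold change of 0.26 that did not pass (edgeR adjusted p = 0.173).

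The genes most like Scgb1a1 within groups were Sec31b (r = 0.99), Agmo (0.98), Slc6a15 (0.98), Slc16a11 (0.97) and Cbr2 (0.97), over the same 8 libraries and 14390 genes. Of these, Slc6a15 (log2 fold change 1.19, edgeR adjusted p = 0.0108) and Slc16a11 (1.21, adjusted p = 0.00935), both solute carriers, rose with Cbr2. Sec31b, a coat protein of vesicles leaving the endoplasmic reticulum, did not pass (0.18, adjusted p = 0.590), nor did Agmo, an ether lipid oxygenase (0.31, adjusted p = 0.0666). Most like Muc1 were Adcy5 (0.97), Ptov1, Nox4 and Lama2 (0.96 each) and Fabp12 (0.95). Of these Lama2, a basement membrane laminin, fell by 0.74 on the log2 scale (edgeR adjusted p = 0.0114). Fabp12 rose by 2.06 (edgeR adjusted p = 0.0205, lost in 3 of 18 alternatives). It was low in WT_BLM, with 13, 1, 6 and 13 counts.

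Of 13 tested genes that assemble and release mucus (22 listed), 5 were higher and 3 lower, beside 20.7% and 20.8% of all tested genes, with a median log2 fold change of 0.17. The chloride and bicarbonate channel Cftr rose 4.04-fold, the granule-docking Rab27a 1.73-fold and Agr3, a relative of Agr2, 1.89-fold (lost in 5 of 20 alternatives). Qsox1, a disulfide-forming oxidase, was 2.24-fold lower and Galnt6, which starts O-glycan chains, 1.74-fold lower. Among 5 other mucins tested (9 in the table), 1 was higher (Muc20, 2.35-fold) and 1 lower (Muc2, above), and the membrane mucins Muc4 (log2 fold change 0.75, edgeR adjusted p = 0.0628) and Muc16 (0.71, adjusted p = 0.0678) did not pass. Of 4 other BPI-fold and secretoglobin genes tested (12 in the table), 1 was higher, the secretoglobin Scgb1c1 (log2 fold change 1.73, adjusted p = 0.00508), and 0 were lower.

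Of 17 tested transcription factors of airway secretory cells, 10 were higher and 2 lower, beside 20.7% and 20.8% of all tested genes, with a median of 0.70. Foxa1 and Foxa2, forkhead factors of airway epithelium, rose 1.96-fold and 1.63-fold, Ehf 2.03-fold and Etv5 2.24-fold, while Cebpd was 2.04-fold lower. Spdef, the factor of goblet cell differentiation, stood near 1 CPM and did not pass (log2 fold change 0.70, edgeR adjusted p = 0.0644). Of 15 tested ligands and receptors that act on secretory cells, 1 was higher and 5 lower, with a median of −0.18. The epithelial alarmin Il33 rose 3.99-fold (adjusted p = 0.00113), whereas Il4ra and Il13ra1, receptor chains for interleukins 4 and 13, were 2.51-fold and 1.97-fold lower and the EGF-receptor ligand Hbegf 1.79-fold lower.

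**Figure D5:**
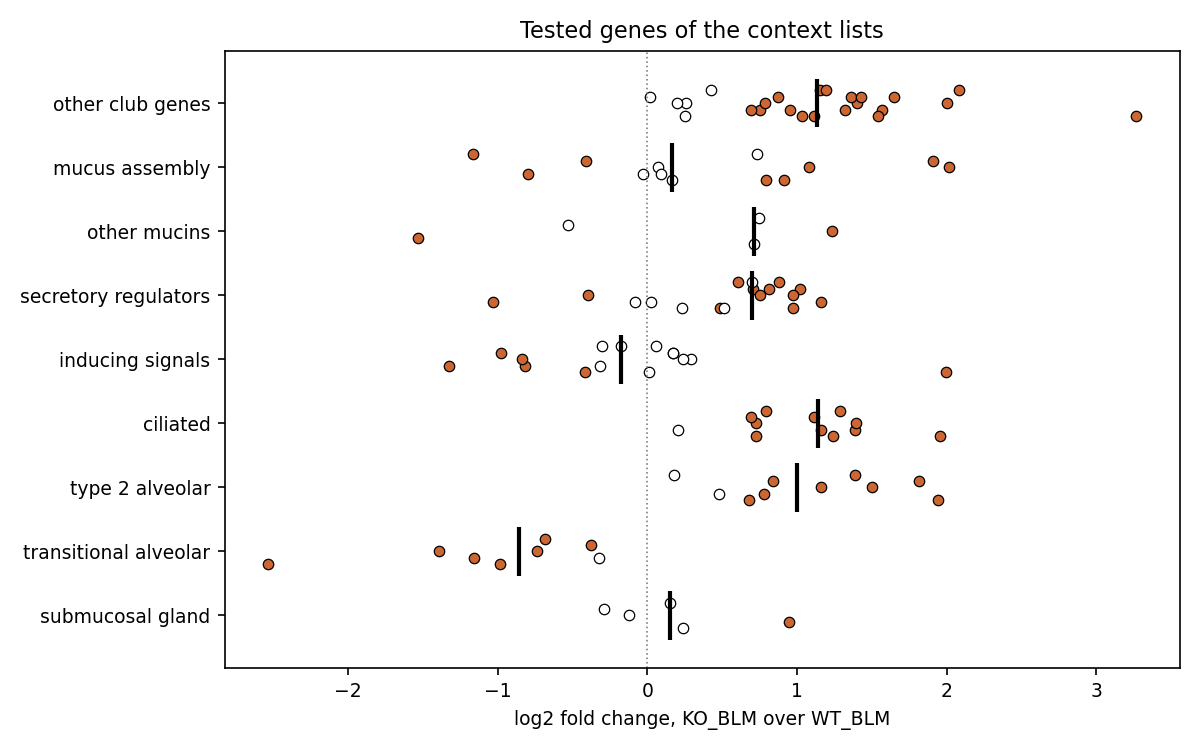
Log2 fold change of KO_BLM over WT_BLM for each tested gene of 9 context lists, filled where past the adjusted p threshold, with the list's median as a bar. Other club, ciliated and type 2 alveolar genes lie mostly above 0 and transitional alveolar genes below it, while mucus assembly and gland genes lie on both sides.

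Markers of other cell types are counted here beside the shares of all tested genes, 20.7% higher and 20.8% lower. Lists with 1 call among 5 genes in a direction are near those shares. Of 12 ciliated cell genes tested, 11 were higher and 0 lower (median 1.14), with summed CPM of 1502 to 1628 in WT_BLM and 2465 to 2850 in KO_BLM. Tppp3, a microtubule protein of cilia, had a log2 fold change of 1.96, and Foxj1 rose 1.65-fold (edgeR adjusted p = 0.0399, lost in 8 of 20 alternatives). Among type 2 alveolar markers 8 of 10 were higher and 0 lower (median 1.001), among type 1 markers 3 of 8 were higher and 0 lower (0.27), and among transitional alveolar markers 0 of 8 were higher and 7 lower (−0.86). Fibroblast markers were higher for 1 and lower for 6 of 8 (−0.995), macrophage markers lower for 8 of 10 (−1.49) and higher for 0, and lymphocyte markers higher for 9 of 10 (1.85) and lower for 0. Of 10 genes shared by most epithelial cells 3 were higher and 3 lower (−0.03), of 5 neuroendocrine and tuft cell markers 1 and 1 (0.48), of 5 basal markers 1 and 0 (−0.13), and of 5 cartilage markers 1 and 1 (−0.90). Sec14l3 stands in both the club and ciliated lists and Etv5 in both the regulator and type 2 lists. The part of a changed mix of lung cells in the rise of Scgb1a1, Scgb3a2, Cyp2f2 and Muc1 was not tested.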

How the data were processed

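RNA of 8 mouse lung samples was sequenced after a stranded, polyadenylated RNA library kit, per the labels' protocols. Per gene symbol, the authors deposited raw read counts and FPKM values. The deposited FPKM values follow from the counts, column totals and gene lengths (100% of values, relative tolerance 1e-06) and add no independent measurement. Trimmomatic, HTSeq, Cufflinks, DESeq and mm10 are named, without version or role, per the submitters' processing notes. Aligner, annotation and strand setting: not given in the sources used here. Genes that overlap, run antisense or are near-identical may therefore share or lose reads. The knockout columns carry the alias PHT2 of SLC15A3 and were mapped by group and number. Libraries of a group differed by more than sampling noise in every pair (chi-square over degrees of freedom, 7.48 to 58.1).

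Counts were tested with edgeR 4.0.16 in R 4.3.3 (TMM factors, filterByExpr with minimum count 10 and minimum total 15, robust quasi-likelihood fit, group only) and adjusted by Benjamini-Hochberg over all 14746 genes tested, at 0.05. Standard errors were obtained as log2 fold change divided by the square root of F. CPM values use TMM-scaled library sizes. Ratios were tested with scipy 1.17.1. The fit was also run on simulated counts in which every gene had the same biological spread between libraries. That run cannot speak for genes whose libraries varied far more.

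The 10 genes and the 18 context lists were chosen with earlier results of these data known, so lists are described by counts and medians without a test. Genes named are the 10, up to 4 tested genes of smallest p and the 2 most abundant of each list, genes beside the mucin and BPI-fold pairs, Slc15a3, and the 5 genes most like Scgb1a1, Bpifa1 and Muc1. The text takes some of these. Agr3, Spdef, Clca1, Tff2, Itln1, Tff1, Gcnt3, Krt5, Il13 and Il4 were chosen after their values were seen. Promoters were matched by symbol to RefSeq. Alternatives covered scaling (RLE factors or library totals alone), no or strict filter, no robust estimation, the 20 most abundant other genes left out, DESeq2 1.42.0, limma 3.58.1 (voom with quality weights, and log2(FPKM + 1) or log2(FPKM + 0.1)), a replicate block and each library left out. Leaving libraries out of the list counts was added after the data were seen, as were gland and cartilage sums without their leading gene.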

Additional observations from a re-analysis of the deposited data

Results flagged for a closer look

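In all, 154 groups of 4 libraries were checked for the genes named. In 17 of them, the gap of 1 library to the nearest other exceeded Dixon's critical share of the whole range. Some genes had been chosen for how they vary over these libraries, or after their values were seen. The number flagged is therefore not set against a chance rate. Among the secretory genes, WT_BLM replicate 1 was high for Scgb3a1 (129.8 CPM, others 18.5 to 25.7), Bpifa1 (149.8 CPM, others 17.9 to 27.1) and Bpifb1 (15.4 CPM, others 1.74 to 3.70). The same library was high for Ltf (84.1 CPM, others 12.4 to 20.04), Reg3g (11.1 CPM, others 1.03 to 2.57), Krt14 (14.9 CPM, others 0.327 to 1.54), Krt5 (15.8 CPM, others 0.054 to 0.397), Clca1 (2.20 CPM, others 0 to 0.198) and Lamp3, a lysosomal protein of type 2 cells (139.9 CPM, others 107 to 112).

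KO_BLM replicate 4 was high for Clca1 (20.4 CPM, others 0 to 0.782), Itln1 (3.49 CPM, others 0 to 0.156) and Il33 (186 CPM, others 98.9 to 109). WT_BLM replicate 2, the lowest wild-type library for Scgb1a1, was low for Scgb1c1 (0.843 CPM, others 1.43 to 1.52), Foxa1 (13.8 CPM, others 17.3 to 17.7), Agmo (9.03 CPM, others 11.2 to 11.6) and Nox4 (55.8 CPM, others 71.6 to 74.4). WT_BLM replicate 4 was high for Cebpd (249.7 CPM, others 176 to 179).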

How the results depend on the processing

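The count of higher members was 4 to 7 with 1 library left out (7 without WT_BLM replicate 1). It was within 1.5 times of 5 in all other fits, but not always for the same genes. With no filter the 5 held Muc5ac in place of Muc5b (edgeR adjusted p = 0.0612 for Muc5b). Under DESeq2 the count was 6, with Muc5ac among them. The count of lower members was 0 except under limma-voom, where it was 1. Under limma-voom the sign turned for Scgb3a1 (−0.92), Bpifa1 (−0.88), Ltf (−0.50) and Adcy5 (0.00099), and under limma on log2(FPKM + 0.1) for Bpifa1 (−0.083) and Adcy5 (0.00039). On log2(FPKM + 1), with or without a minimum of 1 FPKM, Bpifa1 was at −0.031. With 1 library left out, log2 fold changes ranged from −0.69 to 1.42 for Bpifa1, −0.40 to 1.65 for Scgb3a1, −0.47 to 1.18 for Ltf and −0.016 to 0.33 for Sec31b, whose signs turned, and the cause was not tested. Of 1270 alternatives for single genes, 74 moved a gene across the threshold and 18 changed its sign. Library totals alone moved the median of all genes to 0.088 and the calls to 3789 higher and 2253 lower, 62.7% higher against 50.0%.

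With the replicate block, 4 members were higher (Muc5b was lost, adjusted p = 0.0752), as were 2878 of all genes, with 2824 lower. For Bpifb1 to Bpifa1 the exact sign-flip p was 0.125, the smallest that 4 pairs can give. Same-numbered libraries correlated at 0.089, −0.0047, 0.00033 and −0.092 and not every library correlated best with its own number. These values showed no pairing by number, but so few libraries cannot settle whether the samples were paired. Muc5ac, with 3 to 49 counts per library, failed the filter on low counts.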
